A study of Rattus norvegicus with 6 samples.

Results

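Kinetochore and centromere proteins build the structure that attaches chromosomes to the mitotic spindle. The 41 genes described here are a list of symbols of known subunits of these complexes. The rule for membership uses no measured value, although the list was proposed with earlier results of these data known. All 41 were found among the 18631 genes of the counts table. Their RNA was measured in cultured smooth muscle cells of rat vessels, which contract the vessel wall and can return to division. A group of 3 libraries was labelled MIAT knockdown, and the other 3, titled Scr and labelled wild type, are called Scr control. The knocked-down long noncoding RNA MIAT is linked in the study's title, together with the helicase DHX9, to mitotic progression. The treatment, per the labels' protocols, combined siRNAs with antisense oligonucleotides (50 nM in all, 72 h). This text stands with all 6 libraries, and what the Scr cells were given is not stated. Nor do the labels give a rat strain, an animal's age or a number of separate cultures. The p-values therefore reflect the spread among these 6 libraries alone, after differences between library numbers are removed where stated. That spread may be technical.

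The kinetochore forms in layers on centromeric chromatin. The histone H3 variant CENP-A marks the centromere, the constitutive CENP network binds it, and the NDC80, KNL1 and MIS12 complexes link that inner layer to spindle microtubules. The SKA complex strengthens the grip on microtubule ends, the RZZ complex and its partners build the outer corona, and the chromosomal passenger complex corrects faulty attachments. Transcripts of many of these genes are known to be most abundant in dividing cells, and smooth muscle cells divide in culture and in thickening vessel walls.

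Total counts ranged from 17793811 to 20121161 per library, and the 41 genes together held 14486 to 21194 counts of a library. Levels are given as CPM, the count scaled to a library of standard size with TMM factors, with the SD over 3 libraries. The 10 most abundant genes of the table held between 8.49% and 9.73% of all counts under knockdown and between 10.5% and 14.03% in controls, with control library 3 highest. Miat was not analysed here, so the labels could not be checked against the targeted gene. The 8 smooth muscle markers summed to 5296 to 7749 CPM in knockdown and 6010 to 7737 CPM in control libraries, and 3 of the 8 fell. Endothelial markers summed to 5.35 to 6.35 against 6.32 to 10.9 CPM and leukocyte markers to 9.66 to 14.5 against 8.51 to 22.7 CPM. Of the 7 endothelial markers, 5 were tested and 1 fell, Kdr, which encodes a VEGF receptor, at 3.44, 2.47 and 0.831 CPM in knockdown and 7.60, 4.26 and 1.87 CPM in control libraries 1 to 3. Of the 7 leukocyte markers, 6 were in the table, 4 were tested and 0 passed, with Cd68 at up to 10.5 CPM and Csf1r at up to 6.90 CPM. The defining endothelial gene Cdh5 was at 0 in 4 libraries and at most 0.0561 CPM, and the pan-leukocyte gene Ptprc was at 0 in 5 and at most 0.0521 CPM. The 5 fibroblast markers, which cultured smooth muscle cells can also express, summed to 1429 to 1734 CPM in knockdown and 2019 to 2175 CPM in control libraries, and 4 of the 5 fell. Their part in the results was not tested.

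All 41 genes had a higher fitted level in the knockdown libraries than in the controls, where 48.5% of the 13423 tested genes did with the replicate block described next and 47.9% without it. All 41 passed the low-count filter, and their lowest count in any library was 21. Replicate numbers 1 to 3 stand in the titles of both groups, and same-numbered libraries deviated together, so each result is given from edgeR's quasi-likelihood test with this number as a block. The words rose and fell refer to a Benjamini-Hochberg adjusted p under 0.05 over all tested genes in that fit. With the block, 22 of the 41 rose, 0 fell and 19 did not pass, while 10.5% of all tested genes rose and 11.1% fell. The median log2 fold change was 0.36, a 1.28-fold difference, against -0.01 over all tested genes. In bulk RNA, a larger share of dividing cells and more RNA per dividing cell cannot be told apart.

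The rises were small and close together. Among the 22 genes that rose, fold changes lay between 1.17 for Mis12 and 1.68 for Oip5, and 7 of the 41 exceeded 1.5-fold. Without the block, 0 of the 41 passed in edgeR, as did 0% of all tested genes in either direction. At an unadjusted p under 0.05 without the block, 22 of the 41 were higher and 0 lower, against 10.4% and 8.76% of all tested genes. DESeq2 called 8 of the 41 higher without the block and 12 with it, against 2.73% and 4.92% of all tested genes. With the block, the 12 were all among the 22 of edgeR, and the 10 calls that DESeq2 ended are named with their complexes. It called 0 of the 41 lower without the block, against 2.47%. The knockdown and control libraries did not overlap in 24 of the 41, all with knockdown higher, against 14.2% of all tested genes.

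**Figure D1:**
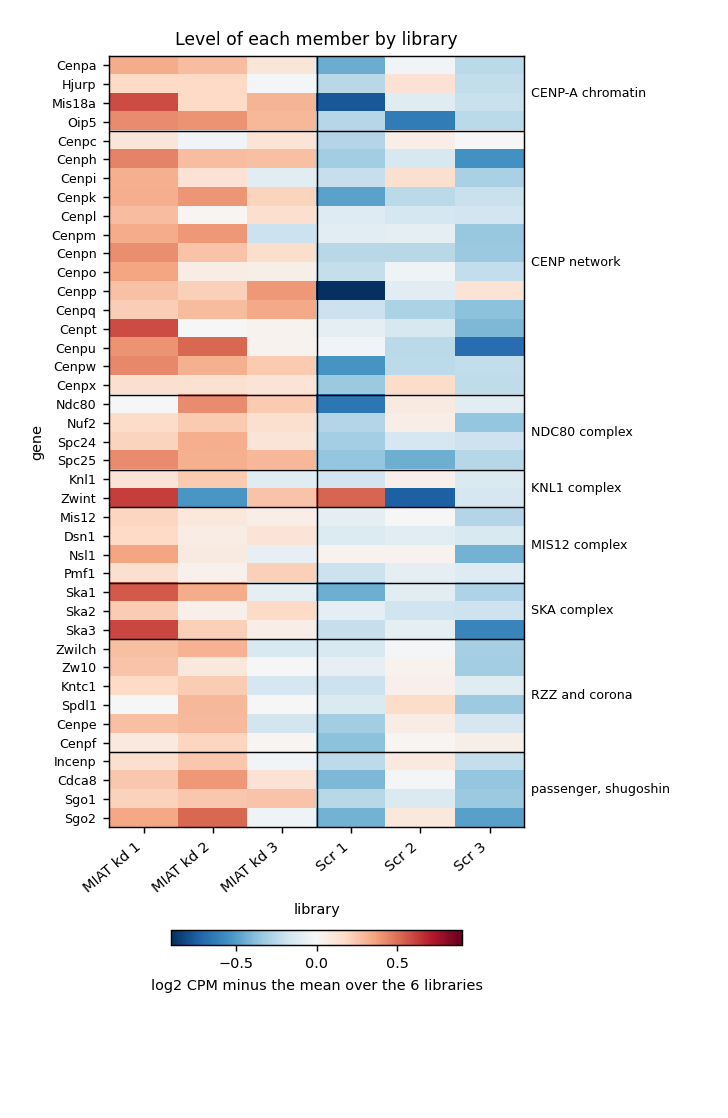
Heat map of the 41 genes (rows, grouped by complex) in the 6 libraries (columns). Colour gives log2 CPM minus the gene's mean over the 6 libraries, red above and blue below. Most rows are red on the left, in the knockdown libraries, and blue on the right. Zwint instead follows the library numbers, with both libraries numbered 2 lowest.

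The libraries numbered 1 differed most. Within pair 1, the knockdown library was higher in 41 of the 41 genes, with a median log2 difference of 0.45. In pairs 2 and 3 it was higher in 38 of the 41, with medians of 0.23 and 0.33. The genes higher in only 2 of the 3 pairs were Cenpc, Cenpe, Cenpf, Cenpi, Cenpx and Kntc1. The other 35 were higher in 3 of 3 pairs, as were 28% of all tested genes. Leaving out a pair left fewer libraries, and 7 of the 22 calls held without pair 1, 4 without pair 2 and 20 without pair 3. Cenph, Spc25 and Cdca8 were the members whose calls held whichever pair was left out. The list median became 0.30, 0.42 and 0.40 when pairs 1, 2 and 3 were left out.

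Promoter sequences are given here as a description, and their part in the fold changes was not tested. RefSeq's GRCr8 table held a window of 250 bases before to 50 bases after the annotated start for 35 of the 41 genes, and not for Cenpt, Zwint, Zwilch, Zw10, Incenp and Sgo2. The CHR element (TTTGAA or TTCGAA, either strand), known from promoters of genes expressed late in the cell cycle, occurred in 20 of the 35 windows, or 57.1%. It occurred in 13.7% of the 10335 windows of genes that passed the low-count filter and in 19.5% of all 27457 windows. The CCAAT box (CCAAT, either strand) occurred in 19 of the 35, or 54.3%, against 38.0% and 37.7%. The E2F motif (TTTGGCGC, TTTCCCGC, TTTCGCGC or TTTGCCGC, either strand) occurred in 1 of the 35, that of Mis18a, against 4.18% and 2.25%. The CHR occurred in 10 of 17 windows of genes that rose and in 10 of 18 windows of genes that did not pass. These matches are letters in a window, and no binding was measured.

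The 150 bases before the annotated start are printed for 6 genes, with matches to these motifs in capitals. Spc25, Cdca8 and Cenpa rose and held a CHR in this stretch, which started 57, 94 and 116 bases before the start. In Cdca8 the CHR shares its last base with a CCAAT box read on the other strand, and a further CCAAT box lies upstream. A whole CHR lay in this stretch in 8 genes, of which 3 rose, and all 3 are printed. The others did not pass, and of them only Cenpi and Hjurp, with the largest fold changes, are printed. Cenpi and Hjurp held a CHR 49 and 92 bases before the start. Cenph rose and held none of the motifs in its whole window. Each is written 5′ to 3′ in the direction of its gene.
Spc25, GRCr8 chr3:74396719-74396868, minus strand: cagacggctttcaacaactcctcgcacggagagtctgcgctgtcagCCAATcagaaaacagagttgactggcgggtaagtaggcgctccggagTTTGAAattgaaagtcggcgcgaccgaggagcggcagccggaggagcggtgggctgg
Cdca8, GRCr8 chr5:142483200-142483349, minus strand: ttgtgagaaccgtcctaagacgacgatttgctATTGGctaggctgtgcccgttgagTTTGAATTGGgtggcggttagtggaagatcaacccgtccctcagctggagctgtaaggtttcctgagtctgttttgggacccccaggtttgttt
Cenpa, GRCr8 chr6:31431553-31431702, minus strand: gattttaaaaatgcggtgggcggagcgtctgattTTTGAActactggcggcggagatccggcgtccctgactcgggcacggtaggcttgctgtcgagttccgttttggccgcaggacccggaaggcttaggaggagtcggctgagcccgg
Cenpi, GRCr8 chrX:101809509-101809658, plus strand: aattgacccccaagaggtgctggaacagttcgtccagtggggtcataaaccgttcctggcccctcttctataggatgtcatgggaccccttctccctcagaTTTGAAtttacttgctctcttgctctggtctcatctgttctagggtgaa
Hjurp, GRCr8 chr9:96315459-96315608, minus strand: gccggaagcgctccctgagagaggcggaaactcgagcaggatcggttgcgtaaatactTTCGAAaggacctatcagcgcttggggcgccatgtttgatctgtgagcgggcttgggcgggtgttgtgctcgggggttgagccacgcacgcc
Cenph, GRCr8 chr2:33644243-33644392, minus strand: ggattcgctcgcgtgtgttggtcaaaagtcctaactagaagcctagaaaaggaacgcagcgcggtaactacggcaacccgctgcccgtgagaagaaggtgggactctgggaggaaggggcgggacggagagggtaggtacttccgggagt
These coordinates belong to the RefSeq table, since the sources used here do not give the authors' build.

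Centromere chromatin and its loading factors were higher, with 2 of 4 past the threshold. Oip5, a subunit of the MIS18 complex that primes centromeres for new CENP-A, stood at 9.11, 8.96 and 8.36 CPM in knockdown libraries 1 to 3 and 5.67, 4.38 and 5.73 CPM in control libraries 1 to 3. The groups did not overlap, and a log2 fold change of 0.75 ± 0.155 (SE; adjusted p = 0.0126) was the largest of the 41. Mis18a, its partner subunit, stood at 5.93, 4.45 and 4.88 CPM in knockdown libraries 1 to 3 and 2.32, 3.65 and 3.43 CPM in control libraries 1 to 3. The groups did not overlap here either, with control library 1 lowest, but a log2 fold change of 0.70 ± 0.240 (SE; adjusted p = 0.0686) did not pass. Cenpa, the centromeric histone itself, rose 1.39-fold, 22.9 ± 1.84 against 16.5 ± 2.43 CPM (n = 3), with an adjusted p of 0.0205. Hjurp, the chaperone that deposits CENP-A, stood at 23.8, 23.8 and 20.8 CPM in knockdown libraries 1 to 3 and 17.7, 23.01 and 18.0 CPM in control libraries 1 to 3. Control library 2 lay between the knockdown libraries, and a log2 fold change of 0.23 ± 0.0985 (SE; adjusted p = 0.136) did not pass. Without pair 1 the call of Cenpa ended (log2 fold change 0.33), and without pair 2 those of Cenpa (0.57) and Oip5 (0.61). Mis18a passed without pair 3 (0.80). DESeq2 with the block called the same 2 of 4.

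The CENP network, the constitutive inner kinetochore, split evenly, with 7 of its 14 members rising and a median log2 fold change of 0.48. Cenph, which joins the CENP-H, -I and -K subcomplex, stood at 14.9, 13.3 and 13.2 CPM in knockdown libraries 1 to 3 and 8.84, 9.93 and 7.50 CPM in control libraries 1 to 3. All knockdown libraries were above all controls, and a log2 fold change of 0.66 ± 0.124 (SE; adjusted p = 0.00876) made it the largest difference in the network. Cenpw, a histone-fold partner of CENP-T that binds DNA, stood at 9.16, 8.48 and 7.99 CPM in knockdown libraries 1 to 3 and 4.71, 5.78 and 5.84 CPM in control libraries 1 to 3. Its groups were also apart, with a log2 fold change of 0.65 ± 0.157 (SE; adjusted p = 0.022). Cenpu, Cenpk and Cenpq, members of the same network, rose 1.55-fold, 1.53-fold and 1.48-fold, and Cenpn, which contacts CENP-A nucleosomes, rose 1.47-fold. Cenpt, which reaches from the DNA to the NDC80 complex, rose 1.34-fold and stood at 24.1, 16.1 and 16.4 CPM in knockdown libraries 1 to 3 and 15.2, 14.5 and 12.1 CPM in control libraries 1 to 3. Knockdown library 1 was the highest by a wide margin, and the other knockdown libraries lay just above the controls.

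The remaining 7 members of the network did not pass. Cenpc, the scaffold that bridges CENP-A chromatin and the outer kinetochore, stood at 18.0, 16.4 and 18.2 CPM in knockdown libraries 1 to 3 and 13.9, 17.4 and 16.7 CPM in control libraries 1 to 3. These values overlapped, and its log2 fold change of 0.14 (adjusted p = 0.41) was the smallest of the 41. Cenpx, a small histone-fold protein and the member with the highest FPKM of the network, stood at 6.66, 6.60 and 6.54 CPM in knockdown libraries 1 to 3 and 4.76, 6.73 and 5.14 CPM in control libraries 1 to 3. Control library 2 was above all knockdown libraries. Cenpl, Cenpo and Cenpp did not overlap between groups and still missed the threshold, with log2 fold changes of 0.30, 0.32 and 0.55. Cenpp was at 2.71 ± 0.173 against 1.89 ± 0.630 CPM, the lowest level of the 41. Cenpi (0.23) and Cenpm (0.36) overlapped. Without pair 1 the calls of Cenpk (0.53), Cenpq (0.65), Cenpt (0.30) and Cenpw (0.51) ended. Without pair 2 those of Cenpk (0.60), Cenpn (0.58), Cenpq (0.56), Cenpt (0.56), Cenpu (0.57) and Cenpw (0.70) ended. Without pair 3 Cenpm passed (0.45). DESeq2 with the block called 4 of the 14 and ended the calls of Cenpq (adjusted p = 0.166), Cenpt (adjusted p = 0.118) and Cenpw (adjusted p = 0.0745).

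**Figure D2:**
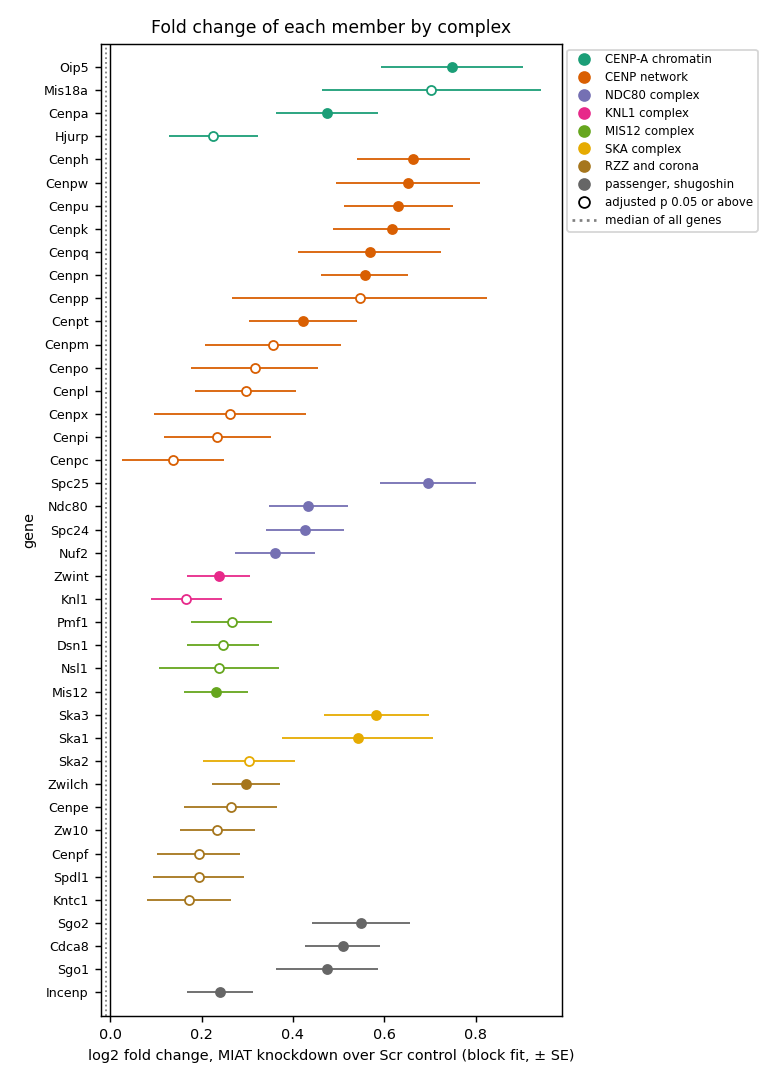
Log2 fold change of each of the 41 genes from the fit with the replicate block, grouped and coloured by complex. Bars give the standard error derived from the test statistic. Filled points have an adjusted p under 0.05, and the dotted line is the median of all tested genes, -0.01. All 41 points lie above 0, from 0.14 for Cenpc to 0.75 for Oip5.

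The NDC80 complex, the rod that binds microtubules, had 4 of 4 genes past the threshold, against 3 of 4 in DESeq2 with the block and 2 of 4 in DESeq2 without it. Spc25, in the part that docks on the inner kinetochore, stood at 17.8, 16.5 and 16.2 CPM in knockdown libraries 1 to 3 and 10.4, 9.71 and 11.03 CPM in control libraries 1 to 3. The libraries of each group were tight and the groups far apart, with a log2 fold change of 0.70 ± 0.106 (SE; adjusted p = 0.00441). Its partner Spc24 stood at 26.3, 28.7 and 24.9 CPM in knockdown libraries 1 to 3 and 18.6, 20.6 and 20.2 CPM in control libraries 1 to 3, with no overlap and a log2 fold change of 0.43 ± 0.0855 (SE; adjusted p = 0.0113). Ndc80, the subunit that contacts the microtubule, stood at 29.8, 40.1 and 35.2 CPM in knockdown libraries 1 to 3 and 19.0, 31.6 and 28.0 CPM in control libraries 1 to 3. Control library 2 exceeded knockdown library 1, but within pairs 1, 2 and 3 the log2 differences were 0.65, 0.34 and 0.33, and a log2 fold change of 0.43 ± 0.0868 (SE; adjusted p = 0.0112) passed. Nuf2, the partner of Ndc80, stood at 32.1, 33.7 and 31.7 CPM in knockdown libraries 1 to 3 and 23.9, 29.9 and 22.5 CPM in control libraries 1 to 3, without overlap, with a log2 fold change of 0.36 ± 0.0869 (SE; adjusted p = 0.0218). The calls of Ndc80, Nuf2 and Spc24 ended without pair 1 (log2 fold changes 0.34, 0.33 and 0.39) and without pair 2 (0.48, 0.46 and 0.40). That of Nuf2 also ended in DESeq2 with the block (adjusted p = 0.0785).

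The KNL1 complex had the smallest median log2 fold change of the complexes, 0.20, with 1 of 2 genes rising. Zwint, which tethers the RZZ complex to KNL1, stood at 156, 70.4 and 121 CPM in knockdown libraries 1 to 3 and 146, 61.0 and 91.5 CPM in control libraries 1 to 3. The level followed the library number, with both libraries numbered 1 above all others and both numbered 2 below all others. Within pairs 1, 2 and 3 the log2 differences were 0.10, 0.21 and 0.41. The log2 fold change of 0.24 passed with the block (adjusted p = 0.0415) and was far from passing without it (adjusted p = 0.792). Its sign turned without the block when knockdown library 1 (-0.050) or control library 2 (-0.044) was left out, and with the block the call ended without pair 2 (0.25) or pair 3 (0.14). Knl1, the large scaffold on which checkpoint proteins gather, stood at 38.4, 41.5 and 32.8 CPM in knockdown libraries 1 to 3 and 31.4, 36.5 and 32.3 CPM in control libraries 1 to 3, with overlapping groups and a log2 fold change of 0.17 ± 0.0776 (SE; adjusted p = 0.16). It passed without pair 3 (0.23). DESeq2 with the block called neither gene, with Zwint at an adjusted p of 0.124.

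MIS12 complex genes, which encode the bridge between CENP-C or CENP-T and the NDC80 complex, lay in a narrow band from 0.23 to 0.27 on the log2 scale. Mis12 stood at 58.3, 54.3 and 53.1 CPM in knockdown libraries 1 to 3 and 48.0, 50.9 and 42.4 CPM in control libraries 1 to 3. All knockdown libraries were above the controls, and this was the member of the complex that passed (a log2 fold change of 0.23 ± 0.0702 (SE; adjusted p = 0.0473)). Pmf1 stood at 23.5, 21.8 and 24.7 CPM in knockdown libraries 1 to 3 and 18.6, 19.98 and 19.6 CPM in control libraries 1 to 3. Dsn1 stood at 28.9, 26.8 and 27.8 CPM in knockdown libraries 1 to 3 and 23.4, 23.7 and 23.2 CPM in control libraries 1 to 3. Neither overlapped between groups, and their adjusted p values of 0.0648 and 0.0561 missed the threshold. Nsl1 overlapped, with a log2 fold change of 0.24 and an adjusted p of 0.231. The Mis12 call ended without pair 1 (0.21), pair 2 (0.30) and pair 3 (0.18), in DESeq2 with the block (adjusted p = 0.21) and with DESeq2 size factors in edgeR (adjusted p = 0.0504).

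SKA genes were apart between the groups in all 3 subunits, and 2 of 3 rose. Ska3 stood at 27.1, 20.7 and 18.6 CPM in knockdown libraries 1 to 3 and 15.5, 16.9 and 11.8 CPM in control libraries 1 to 3. Knockdown library 1 was highest and control library 3 lowest, with a log2 fold change of 0.58 ± 0.115 (SE; adjusted p = 0.0108). Ska1, the subunit with the microtubule-binding domain, stood at 12.96, 11.1 and 8.36 CPM in knockdown libraries 1 to 3 and 6.52, 8.25 and 7.28 CPM in control libraries 1 to 3, with a log2 fold change of 0.54 ± 0.165 (SE; adjusted p = 0.0482). Knockdown library 3 lay just above the highest control. Ska2 stood at 16.0, 14.2 and 15.5 CPM in knockdown libraries 1 to 3 and 12.9, 12.1 and 12.0 CPM in control libraries 1 to 3, and its log2 fold change of 0.30 did not pass (adjusted p = 0.0634). The calls of Ska1 ended without pair 1 (0.32) and pair 2 (0.60), and that of Ska3 without pair 1 (0.47). DESeq2 with the block ended that of Ska1 (adjusted p = 0.13).

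The RZZ complex and the corona, the outermost layer that captures microtubules from the side and recruits dynein, had 1 riser among 6 genes. Zwilch, an RZZ subunit, stood at 47.1, 48.5 and 35.6 CPM in knockdown libraries 1 to 3 and 35.5, 38.9 and 31.9 CPM in control libraries 1 to 3. Knockdown library 3 overlapped the controls, while the log2 fold change of 0.30 passed (adjusted p = 0.0247). Cenpe, a kinesin motor that moves chromosomes to the spindle equator, stood at 65.7, 66.9 and 48.6 CPM in knockdown libraries 1 to 3 and 44.0, 57.2 and 49.2 CPM in control libraries 1 to 3. It was higher in pairs 1 and 2 and not in pair 3, with a log2 fold change of 0.26 ± 0.103 (SE; adjusted p = 0.101). Kntc1, which encodes the RZZ subunit ROD, stood at 35.9, 37.0 and 28.5 CPM in knockdown libraries 1 to 3 and 27.6, 32.7 and 29.4 CPM in control libraries 1 to 3, the same pattern, with a log2 fold change of 0.17 ± 0.0916 (SE; adjusted p = 0.211). Zw10, the remaining RZZ subunit, had a log2 fold change of 0.23, the dynein adaptor Spdl1 0.19 and the large corona protein Cenpf 0.19. The Zwilch call ended without pair 1 (0.25) and pair 2 (0.29) and in DESeq2 with the block (adjusted p = 0.114), whereas Cenpe (0.40), Cenpf (0.31) and Kntc1 (0.28) passed without pair 3. The median log2 difference of the 6 genes was 0.39, 0.18 and 0.07 in pairs 1, 2 and 3.

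Passenger complex and shugoshin genes had 4 of 4 past the threshold, against 2 of 4 in DESeq2 with the block and 1 of 4 in DESeq2 without it. Cdca8, which encodes borealin and helps bring the complex to centromeres, stood at 31.8, 35.4 and 29.5 CPM in knockdown libraries 1 to 3 and 20.4, 26.7 and 21.1 CPM in control libraries 1 to 3. The groups did not overlap, with a log2 fold change of 0.51 ± 0.0820 (SE; adjusted p = 0.00547). Sgo2, a shugoshin that recruits phosphatase to centromeres, stood at 20.8, 23.3 and 15.9 CPM in knockdown libraries 1 to 3 and 12.1, 17.4 and 11.6 CPM in control libraries 1 to 3. Control library 2 exceeded knockdown library 3, but the knockdown was higher in each pair, with a log2 fold change of 0.55 ± 0.107 (SE; adjusted p = 0.0102). Sgo1, the protector of centromeric cohesion, rose 1.39-fold, 13.2 ± 0.248 against 9.50 ± 0.667 CPM (n = 3), with an adjusted p of 0.0203. Incenp, the scaffold of the passenger complex, stood at 46.02, 49.4 and 41.1 CPM in knockdown libraries 1 to 3 and 35.4, 44.3 and 36.0 CPM in control libraries 1 to 3. The groups overlapped, and a log2 fold change of 0.24 ± 0.0726 (SE; adjusted p = 0.0464) passed narrowly. Without pair 1 the calls of Incenp (0.18), Sgo1 (0.49) and Sgo2 (0.44) ended, and without pair 2 the same genes lost theirs (0.28, 0.52 and 0.62). DESeq2 with the block ended the calls of Incenp (adjusted p = 0.22) and Sgo1 (adjusted p = 0.111).

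Levels per gene length can be compared between genes from the FPKM values that the authors deposited, which divide counts by the length of the gene and the size of the library. Over the 6 libraries the mean FPKM of the 41 genes ran from 1.76 for Cenpp to 60.1 for Zwint, with a median of 6.23. Within the NDC80 complex, Spc24 stood at 17.6 ± 0.778 FPKM in the control libraries (SD, n = 3), Nuf2 at 13.7 ± 2.30, Ndc80 at 5.27 ± 1.24 and Spc25 at 4.54 ± 0.223. The last of these had the largest fold change of the complex and the lowest FPKM. In the passenger group, Cdca8 stood at 13.2 ± 2.07 FPKM in controls and Sgo1 at 2.74 ± 0.251. Among the MIS12 complex genes, Mis12 at 16.8 ± 1.97 and Pmf1 at 16.6 ± 0.554 were close, with Nsl1 lowest at 3.47 ± 0.698. Zwint varied widely between libraries, 66.9 ± 26.0 FPKM in the knockdown and 53.2 ± 24.3 FPKM in the control group.

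**Figure D3:**
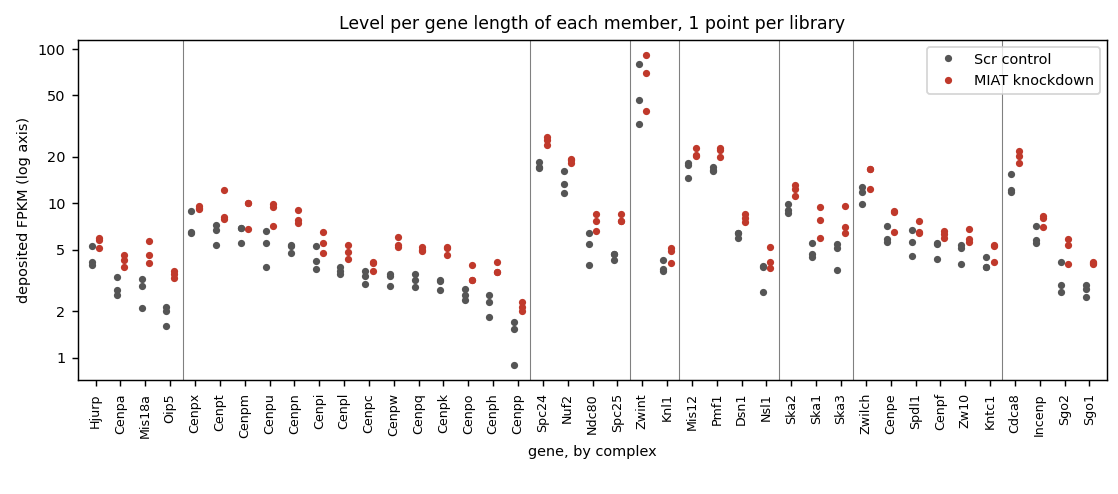
Deposited FPKM of each of the 41 genes on a log axis, 1 point per library, grey for Scr control and red for MIAT knockdown, grouped by complex and ordered within it by the control mean. Zwint stands highest and spreads widely, and Cenpp is lowest. These values are not TMM-scaled.

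Genes with a shorter length behind the FPKM tended to have larger fold changes. Across the 41 genes, the log2 fold change of the block fit and the log2 gene length behind the FPKM had a Pearson's r of -0.36 and a Spearman's rho of -0.41, as a description over genes that share the same 6 libraries and are not independent replicates. The 10 shortest genes, 732 to 1601 bases, had a median log2 fold change of 0.48, and the 10 longest, 4206 to 10448 bases, 0.23. With a correction for gene length fitted per library over all genes, these medians were 0.40 and 0.32 and r was 0.02. Under that correction 21 of the 41 rose and the list median was 0.33. Knl1, Zw10, Cenpe and Cenpf passed, and the calls of Cenpq, Cenpt, Zwint, Mis12 and Ska1 ended.

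**Figure D4:**
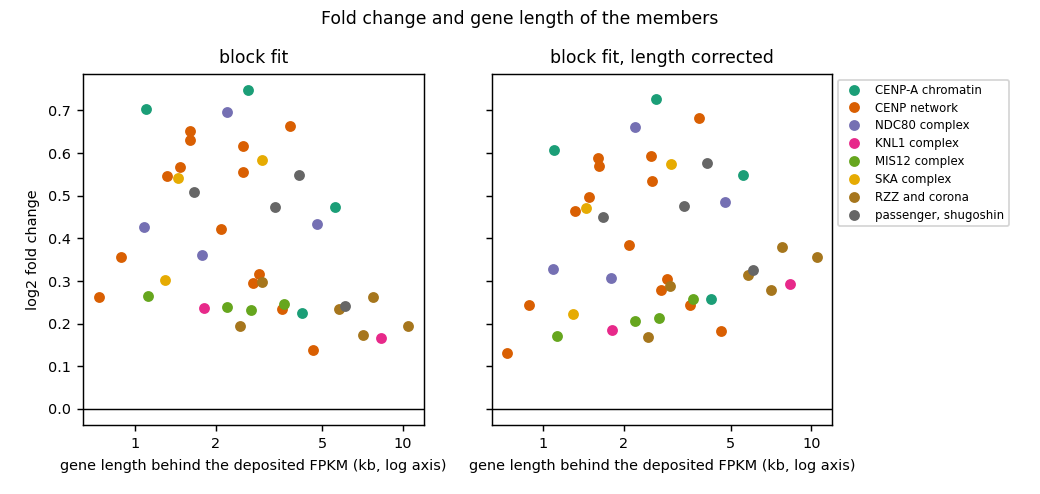
Log2 fold change against gene length in kilobases (log axis) for the 41 genes, coloured by complex, in the block fit (left) and in the block fit with the length correction (right). The long corona genes and Knl1 lie low on the left and move up on the right. All points stay above 0 in both panels.

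Other kinetochore and centromere genes, a list of checkpoint proteins and regulators, had a median log2 fold change of 0.36 too. Of 27 tested, 13 rose, 1 fell and 13 did not pass. Ercc6l, a helicase-like protein of anaphase DNA bridges, rose 1.77-fold and Birc5, which encodes the passenger subunit survivin, 1.59-fold. The checkpoint kinase gene Bub1 stood at 54.2, 48.0 and 43.9 CPM in knockdown libraries 1 to 3 and 29.8, 34.3 and 33.3 CPM in control libraries 1 to 3, well apart. Bub1b, the checkpoint gene for BUBR1, rose 1.53-fold, Mad2l1, which encodes MAD2, 1.43-fold, Aurkb, the kinase of the passenger complex, 1.38-fold and Plk1, a mitotic kinase, 1.29-fold. Clasp1, which regulates microtubule ends at kinetochores and in interphase, was the gene that fell, at 67.3, 72.8 and 71.6 CPM in knockdown libraries 1 to 3 and 84.6, 90.3 and 97.8 CPM in control libraries 1 to 3, a log2 fold change of -0.36. The number that rose was 8 without pair 2, where the calls of Aurkb (0.39), Bub1b (0.62) and Plk1 (0.46) ended, and 10 without pair 1, where that of Plk1 (0.23) ended. With total counts as scaling 20 rose and 1 fell.

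General markers of the dividing cell moved with the 41 genes. Of 20 markers of G2 and M phase, 19 rose, 0 fell and 1 did not pass, with a median log2 fold change of 0.44. Mki67, which encodes Ki-67, rose 1.22-fold, Cks2, a partner of cyclin-dependent kinases, 1.61-fold and Ect2, a regulator of cytokinesis, 1.48-fold. Their summed level was 1169 to 1410 CPM in knockdown and 918 to 1117 CPM in control libraries. Of 20 markers of S phase, 17 rose, 0 fell and 3 did not pass, with a median of 0.39. Ccne2, which encodes cyclin E2, rose 1.73-fold and the replication gene Gins2 1.62-fold. The S phase markers summed to 898 to 1051 CPM in knockdown and 676 to 881 CPM in control libraries. The part that the share of cells in each phase plays in the kinetochore genes was not tested.

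Within pairs 1, 2 and 3 the median of the 41 genes was below that of the G2 and M markers by a log2 difference of -0.18, -0.09 and -0.11. Both lists had their largest median in pair 1 and their smallest in pair 2. Without pair 1, 12 of the 20 G2 and M markers and 6 of the 20 S phase markers rose, and without pair 2, 11 and 10 did. The calls of Mki67 ended without pair 1 (log2 fold change 0.19) and pair 2 (0.33), and so did those of Gins2 (0.74 and 0.73). DESeq2 with the block called 16 of the G2 and M and 11 of the S phase markers.

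**Figure D5:**
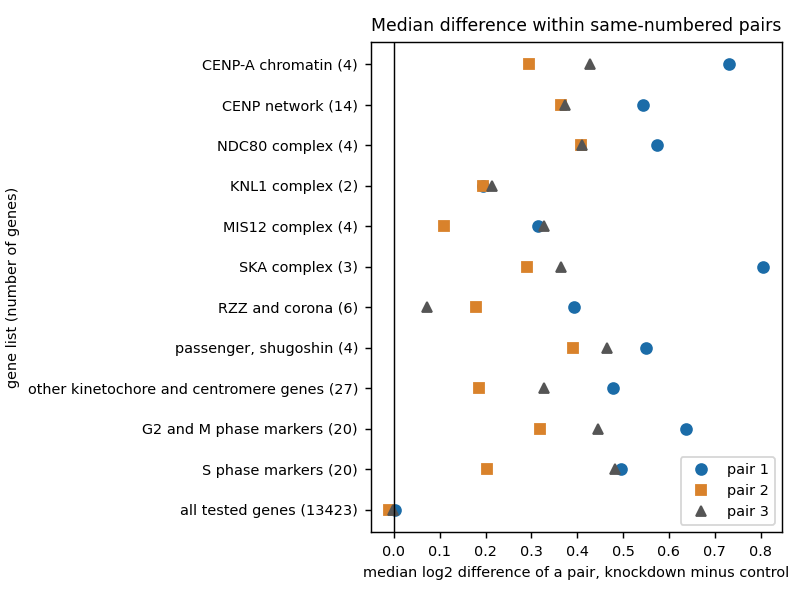
Median log2 difference, knockdown minus control, within same-numbered pairs 1 (circles), 2 (squares) and 3 (triangles), for each complex and for the lists of other genes, with the number of genes in brackets. The medians of all complexes lie above 0 in each pair, and those of all tested genes lie near 0.

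Gene models that overlap can share reads, and the sources used here do not give the strand setting of the authors' counting. In RefSeq's GRCr8 annotation, used for names only, 18 of the 41 genes overlap another gene model, 13 of them a protein-coding one, and 11 of the 22 that rose are among the 18. Spc25 overlaps Nostrin, with means of 4.47 CPM (knockdown) and 3.86 CPM (control) against 16.8 and 10.4 CPM for Spc25. Ska3 overlaps Mrpl57, a mitochondrial ribosomal protein gene at 18.1 and 15.2 CPM, against 22.1 and 14.7 CPM for Ska3. Sgo2 overlaps Kctd18, which fell by 0.26 on the log2 scale. Some partners stood above their member. Cenpk, which rose, overlaps Ppwd1 at 19.95 CPM (knockdown) and 17.4 CPM (control), against 12.2 and 7.97 CPM for Cenpk. Cenpo overlaps Adcy3 at 45.4 and 42.7 CPM, against 9.64 and 7.73 CPM for Cenpo. Cenpp overlaps Aspn, among others, at 25.8 and 37.5 CPM, against 2.71 and 1.89 CPM for Cenpp. Values of overlapping genes are uncertain to the extent that their reads were shared. Cenph, Cdca8 and Oip5 overlap no other model there.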

How the data were processed

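Polyadenylated RNA was sequenced in 6 libraries of rat vascular smooth muscle cells, 3 per group. The authors deposited raw counts per gene symbol. They also deposited FPKM values, of which 100% matched counts scaled by 1 length per gene and by library total (relative tolerance 1e-06). Aligner, counting program, strand setting and build: not given in the sources used here.

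Counts were normalized with TMM and filtered with filterByExpr in edgeR 4.0.16 (R 4.3.3), which left 13423 genes. The main fit was edgeR's quasi-likelihood test without a block, adjusted by Benjamini-Hochberg over the 13423 genes, with a threshold of 0.05. A further fit, planned as an alternative, had the replicate number as a block, and the words rose and fell refer to it. After removal of group means, same-numbered libraries correlated at 0.68, 0.52 and 0.58 across genes and differently numbered ones at -0.56 to -0.05. Deviations from a group mean cancel within each gene, so the negative values follow in part from the positive ones. The shared numbers and the positive correlations give the pairing, and the labels do not state it. The biological coefficient of variation was 19.7% without and 8.09% with the block, on 4 and 2 residual degrees of freedom. Each SE was derived as the absolute log2 fold change divided by the square root of the quasi-likelihood F statistic. Chi-square values per degree of freedom between libraries of a group were 20.6 to 83.6. Log2 differences within pairs used a count of 0.5 added to each library. DESeq2 1.42.0, limma 3.58.1 (voom, and a trend on log2(FPKM + 1) or log2(FPKM + 0.1)), other scalings and filters, each library or pair left out and a loess correction for length (span 0.5) were the alternatives.

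Membership follows from function and not from measured values, but the members, the lists and the naming rule were chosen with earlier results of these data known. Named in full were, per complex, the pair of genes with the largest absolute log2 fold change, the gene with the smallest and the gene with the highest FPKM, and of each other list the pair with the largest change among those past the threshold plus Mki67, Aurkb, Birc5, Bub1, Bub1b, Mad2l1 and Plk1. Clasp1, Mad1l1, Mrpl57, Nostrin, Kctd18, Ppwd1, Aspn and Adcy3 and the further members described were chosen after their values were seen. All 41 symbols matched RefSeq's GRCr8 annotation, and no list test was made.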

Additional observations from a re-analysis of the deposited data

How the results depend on the processing

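All 41 genes kept a positive log2 fold change in the 25 alternatives, except Zwint without the block when knockdown library 1 (-0.050) or control library 2 (-0.044) was left out, a range of -0.050 to 0.60 over left-out libraries. The list median ranged from 0.27 to 0.46, lowest without knockdown library 1 and highest with total counts and the block. Total counts moved the median of all genes from -0.01 to 0.10 with the block, so directions are relative to TMM scaling. Without the block, edgeR called 0 genes, with 2576 at an unadjusted p under 0.05, and limma-voom, the FPKM fits, the other scalings and filters and each left-out library also gave 0, while DESeq2 called 699, 8 of the 41 among them. The replicate block gave 2898 genes and 22 of the 41. With the block, the counts of all genes and of the 41 were 1590 and 12 in DESeq2, 3051 and 22 in limma-voom, 2961 and 21 with DESeq2 size factors, 3641 (2822 higher, 819 lower, against 1412 and 1486) and 34 with total counts, 3128 and 23 with no low-count filter, 2909 and 22 with at least 1 CPM in 3 libraries, and 2295 and 21 with the length correction. Leaving out each pair gave 736 to 4124 genes and 4 to 26 of the 41 (1195 and 7 without pair 1, 736 and 4 without pair 2, 4124 and 26 without pair 3). These fits have fewer samples, and their variance estimates are less certain. No setting called any of the 41 lower. Apart from the fewer samples, the cause of these differences was not tested.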
